A study of Mus musculus with 7 samples.

Results

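Platelets are shed into the blood by megakaryocytes, and in mice both are found in the red pulp of the spleen, which stores circulating platelets and also makes blood cells. The genes examined here encode platelet proteins that act in clotting and in recruiting leukocytes. They were 9 genes of the 55414 in the count table, taken from a list of gene names, with no threshold on their values: Pf4, Ppbp, Itga2b, Gp1ba, Gp9, Gp6, Itgb3, Treml1 and Tubb1. All 9 were found by symbol, and all 9 were among the 16089 genes that passed the filter on low counts. The samples were spleens of Fpr2KO mice (n = 4), which lack the formyl peptide receptor gene Fpr2, and spleens from wild-type mice (WT, n = 3), whose genotype label reads C57BL/6N. No treatment is given in the labels, and the ages and sexes of the mice, the background strain of the Fpr2KO mice and whether animals were pooled are not given in the sources used here. Polyadenylated RNA was sequenced, and values are reads per gene. The comparison asks how deletion of Fpr2 bears on gene expression in the spleen.

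As background, platelet adhesion starts when the GPIb-IX-V complex, of which Gp1ba and Gp9 encode subunits, holds von Willebrand factor on a damaged vessel wall. Glycoprotein VI, encoded by Gp6, then signals from collagen, and the integrin of the alphaIIb and beta3 chains, encoded by Itga2b and Itgb3, binds fibrinogen and joins platelets to each other. Granules release the chemokines encoded by Pf4 (platelet factor 4, CXCL4) and Ppbp (pro-platelet basic protein, the precursor of CXCL7, which attracts neutrophils). Treml1 encodes TLT-1, a receptor held in the granule membrane until activation. Tubb1 encodes the beta1 tubulin of the microtubule coil that gives the platelet its disc shape. Megakaryocytes express these genes under transcription factors of the GATA and ETS families among others.

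The promoters of 8 of the 9 genes were matched in RefSeq (GRCm38.p6), and 5 of the 6 that held a GATA or ETS match are shown, to set the matches in their sequence. Each is the 250 bases before the RefSeq start, 5′ to 3′ on the gene's strand. Gene positions given below come from GENCODE, whose start for Itga2b, at 102470122, lies inside its window. Most of that window, with its ETS matches, is thus within the gene as placed there. The starts of the 2 annotations also differ for Tubb1 and Gp9. Capitals mark letters of a GATA motif, searched as AGATAA, also as AGATAG, also as TGATAA and also as TGATAG, or of an ETS motif, searched as AGGAAG and also as CGGAAG, on both strands.
Gp1ba (chr11:70638872-70639121, plus strand): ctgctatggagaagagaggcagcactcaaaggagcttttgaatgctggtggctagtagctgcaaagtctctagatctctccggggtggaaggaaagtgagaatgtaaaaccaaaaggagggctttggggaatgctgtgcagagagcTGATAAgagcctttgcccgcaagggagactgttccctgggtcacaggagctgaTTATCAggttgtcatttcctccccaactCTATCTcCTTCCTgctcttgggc
Gp9 (chr6:87777820-87778069, plus strand): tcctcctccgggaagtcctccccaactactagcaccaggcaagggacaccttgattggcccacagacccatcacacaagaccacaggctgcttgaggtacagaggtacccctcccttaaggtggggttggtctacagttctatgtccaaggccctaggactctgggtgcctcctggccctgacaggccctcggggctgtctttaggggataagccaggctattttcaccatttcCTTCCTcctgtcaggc
Gp6 (chr7:4397745-4397994, minus strand): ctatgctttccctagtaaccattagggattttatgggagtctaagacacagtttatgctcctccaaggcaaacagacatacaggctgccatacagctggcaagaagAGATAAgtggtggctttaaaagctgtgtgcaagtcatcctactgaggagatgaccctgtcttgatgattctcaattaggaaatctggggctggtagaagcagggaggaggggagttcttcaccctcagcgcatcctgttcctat
Itga2b (chr11:102469884-102470133, minus strand): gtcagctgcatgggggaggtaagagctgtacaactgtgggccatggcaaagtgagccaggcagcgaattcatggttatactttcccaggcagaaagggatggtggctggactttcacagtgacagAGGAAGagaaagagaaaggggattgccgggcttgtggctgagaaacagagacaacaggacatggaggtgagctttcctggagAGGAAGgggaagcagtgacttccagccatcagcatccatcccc
Pf4 (chr5:90772185-90772434, plus strand): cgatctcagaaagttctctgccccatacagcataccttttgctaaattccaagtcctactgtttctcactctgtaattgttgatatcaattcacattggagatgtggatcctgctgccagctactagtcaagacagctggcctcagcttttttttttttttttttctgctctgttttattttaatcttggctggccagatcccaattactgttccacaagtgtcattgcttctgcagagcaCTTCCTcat
An ETS motif stood in 5 of the 8 member promoters, those of Pf4, Itga2b, Gp1ba, Gp9 and Tubb1, and in 39.2% of all 32851 promoters in the table. A GATA motif stood in 2 of the 8, those of Gp1ba and Gp6, and in 26.5% of all promoters. Gp1ba held 3 GATA matches and 1 ETS match, the latest of them starting 23 and 16 bases before the start. TGTGGT, the letters of a RUNX motif, occurred in 1 member promoter (Gp9) and in 14.1% of all, and TGAGTCA, the core of an NF-E2 motif, in 0 and in 4.46%. The promoters of Ppbp and Treml1 held no match to any of these motifs. No match shared a base with another. These are matches of letters in a short window and not mapped binding sites.

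The libraries held between 16424799 and 18692809 counts in Fpr2KO and between 14968605 and 16600334 in WT. Values are CPM, counts scaled for library size and by TMM, which evens out differences in composition between libraries. On that scale 3 counts, taken as the floor, came to at most 0.201 CPM, far under every member. Fpr2 had 0 reads in each Fpr2KO library and 537, 479 and 477 in WT, so the libraries matched their labels (exact permutation p = 0.0286, two-sided, the smallest that 7 libraries allow). In the WT spleens it averaged 32.2 ± 3.4 CPM (SD, n = 3), and it was at least 181-fold lower in Fpr2KO, counting the floor per library. All 9 markers of spleen and its lymphocytes were read in each library, among them Tlx1, a transcription factor gene of splenic stroma. Pancreatic acinar genes, which mark the neighbouring organ, summed to 1093 and 606 CPM in Fpr2KO replicates 1 and 2, against 36.0 to 39.7 in the other 2 Fpr2KO libraries and 24.4 to 49.1 in WT. Results of the fit for the members, and median log2 fold changes of the further platelet and megakaryocyte lists, are therefore also given without both of these libraries.

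None of the 9 genes differed between Fpr2KO and WT spleens beyond the spread between libraries. All 9 had a lower fitted level in Fpr2KO, by 0.15 to 0.41 on the log2 scale, as had 51.4% of all genes tested, but the groups overlapped for each of them. What the data showed instead was a difference between single libraries that all 9 genes shared: WT replicate 1 and Fpr2KO replicates 3 and 4 were low, while WT replicates 2 and 3 and Fpr2KO replicate 2 were high. The summed level of the 9 genes was 747, 965, 606 and 529.6 CPM in Fpr2KO replicates 1 to 4 and 531, 963 and 1036 CPM in WT replicates 1 to 3. The lowest and the highest WT library thus spanned almost the whole range of the series. In bulk RNA of this kind, fewer megakaryocytes or platelets and less RNA in each cannot be told apart.

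**Figure D1:**
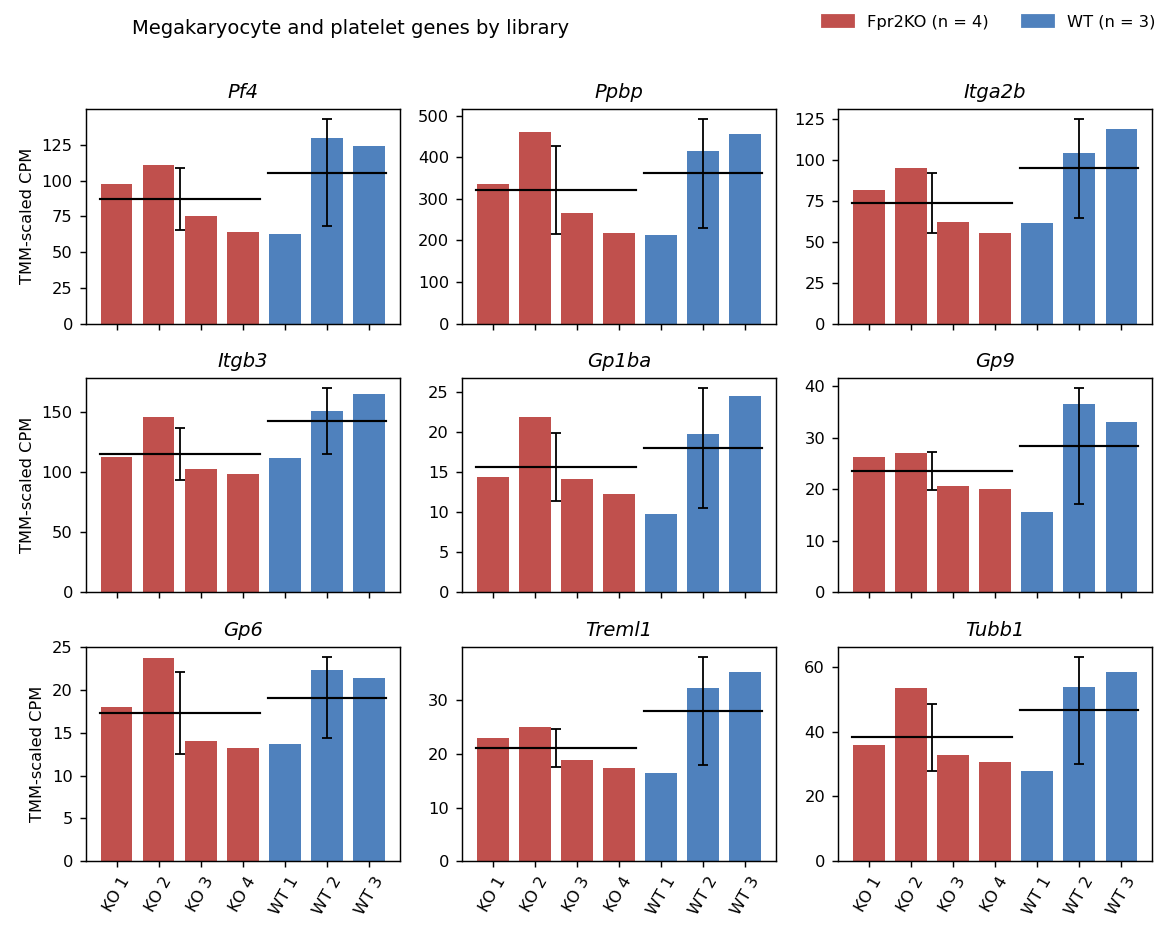
TMM-scaled CPM of the 9 genes in each library, Fpr2KO (red, KO, n = 4) left of WT (blue, n = 3), each bar being 1 library, with the group mean as a line and the SD as a whisker. In every panel WT replicate 1 is below WT replicates 2 and 3, and Fpr2KO replicate 2 is the highest Fpr2KO library.

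Per kilobase of exon, the granule chemokine genes Ppbp and Pf4 had the highest levels of the 9. Ppbp had 336, 461, 265 and 218 CPM in Fpr2KO replicates 1 to 4, against 212, 414 and 456 CPM in WT replicates 1 to 3. Its highest library was thus Fpr2KO replicate 2 and its lowest WT replicate 1, and the log2 fold change was -0.17 (SE 0.36, 95% interval -1.05 to 0.70). Pf4 had 97.9, 111, 75.4 and 63.9 CPM in Fpr2KO, against 62.5, 130.1 and 124 CPM in WT. All 4 Fpr2KO values lay within the WT range, and the log2 fold change was -0.28 (SE 0.31, interval -1.02 to 0.46). Both genes lie on chromosome 5 of GRCm38 on the plus strand, Ppbp at 90768518 to 90770063 and Pf4 at 90772435 to 90773383, neighbours in a chemokine cluster. Per kilobase of exon, Pf4 had between 0.362 and 0.472 of the Ppbp level in the 7 libraries. That ratio averaged 0.417 ± 0.0368 in Fpr2KO (SD, n = 4) and 0.441 ± 0.0322 in WT (SD, n = 3).

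The genes of the fibrinogen receptor chains also overlapped between the groups. Itga2b, the chain largely limited to megakaryocytes and platelets, had 81.9, 95.1, 62.0 and 55.3 CPM in Fpr2KO replicates 1 to 4, against 61.3, 104 and 119 CPM in WT replicates 1 to 3. Only Fpr2KO replicate 4 lay under the WT range, and the log2 fold change was -0.37 (SE 0.28, interval -1.03 to 0.30). Itgb3, whose chain also pairs with the alphav integrin in other cells, had 113, 146, 103 and 98.7 CPM in Fpr2KO, against 112, 151 and 165 CPM in WT. Fpr2KO replicates 3 and 4 were under its lowest WT library. It had the smallest unadjusted p of the 9 genes (0.103), with a log2 fold change of -0.31 (SE 0.17, interval -0.69 to 0.08). Its highest-to-lowest ratio over the 7 libraries, 1.67, was the smallest of the 9. Per kilobase of the merged exons of all annotated transcripts, the Itga2b level was between 0.593 and 0.787 of the Itgb3 level in every library. The size of that ratio depends on the lengths used. Itga2b lies on chromosome 11 at 102453297 to 102470122 (minus strand) and Itgb3 on the same chromosome at 104608000 to 104670476 (plus strand).

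Genes for the receptors that bind the vessel wall overlapped too. Gp1ba, which encodes the chain that binds von Willebrand factor, had 14.4, 21.8, 14.2 and 12.2 CPM in Fpr2KO replicates 1 to 4, against 9.79, 19.7 and 24.4 CPM in WT replicates 1 to 3. The WT libraries differed 2.50-fold among themselves, more than for any other of the 9 genes, and the log2 fold change was -0.20 (SE 0.33, interval -0.97 to 0.57). Gp9 had 26.3, 27.1, 20.7 and 20.1 CPM in Fpr2KO, against 15.7, 36.6 and 33.0 CPM in WT. All 4 of its Fpr2KO libraries lay inside the WT range, with a log2 fold change of -0.27 (SE 0.28, interval -0.94 to 0.39). The collagen receptor gene Gp6 had 18.0, 23.8, 14.1 and 13.2 CPM in Fpr2KO, against 13.7, 22.3 and 21.4 CPM in WT. Its highest and its lowest value both came from Fpr2KO, and its log2 fold change of -0.15 (SE 0.24, interval -0.69 to 0.40) was the smallest of the 9. Gp1ba is on chromosome 11 at 70639122 to 70642036 (plus strand), Gp9 on chromosome 6 at 87778072 to 87779768 (plus strand) and Gp6 on chromosome 7 at 4363965 to 4397744 (minus strand).

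The granule receptor gene and the tubulin gene completed the set. Treml1 had 23.0, 25.0, 18.9 and 17.3 CPM in Fpr2KO replicates 1 to 4, against 16.4, 32.3 and 35.2 CPM in WT replicates 1 to 3. Its log2 fold change of -0.41 (SE 0.26, interval -1.02 to 0.19) was the largest of the 9, yet every Fpr2KO library was above WT replicate 1. Tubb1 had 35.9, 53.6, 32.8 and 30.7 CPM in Fpr2KO, against 27.8, 53.7 and 58.3 CPM in WT. Fpr2KO replicate 2 was level with WT replicate 2, and the log2 fold change was -0.29 (SE 0.31, interval -1.02 to 0.45). Treml1 lies on chromosome 17 at 48359916 to 48367176 and Tubb1 on chromosome 2 at 174450695 to 174457882, both on the plus strand. Exons of the 9 genes overlapped no other annotated gene.

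By edgeR's quasi-likelihood test, with p-values adjusted over all genes by the Benjamini-Hochberg method and called under 0.05, 0 of the 9 genes passed. Over all genes 0.0373% passed. The edgeR adjusted p was 1.00 for each of the 9. At an unadjusted p under 0.05 the count was also 0 of 9, against 4.98% of all genes, and DESeq2 called 0 of the 9, against 0.343% of the genes tested by both tools. Groups were apart in CPM for 0 of the 9, against 5.91% of all genes (3.18% with Fpr2KO the lower). Because the 9 genes shared one pattern across the libraries, their common direction does not rest on 9 separate observations. The median log2 fold change was -0.28, against -0.0049 over all genes tested. The intervals left room for changes of either sign in each gene, from 0.484-fold for Ppbp at the low end to 1.63-fold for the same gene at the high end.

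**Figure D2:**
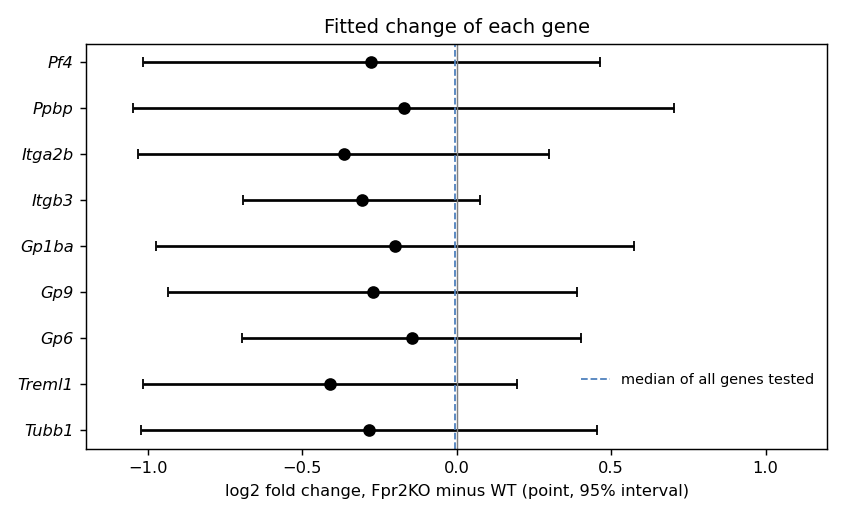
Log2 fold change of each gene, Fpr2KO minus WT, with its 95% interval from the edgeR fit; the dashed line is the median of all genes tested. Every point is left of 0 and every interval crosses 0.

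Single libraries set the size of this median. It was -0.54 without WT replicate 1, -0.13 without WT replicate 2, -0.14 without WT replicate 3 and -0.42 without Fpr2KO replicate 2. Without both Fpr2KO replicates 1 and 2 it was -0.55. Ppbp and Gp1ba turned to a higher fitted level without WT replicate 3 (0.032 and 0.087), leaving 7 of the 9 genes lower. In none of the fits that left out 1 library or both Fpr2KO replicates 1 and 2 did a member pass edgeR's test.

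The pattern that the genes shared was tight. Over the 36 pairs of members, Pearson's r of log2 CPM across the 7 libraries ran from 0.806 to 0.977 with a median of 0.942, and Spearman's rho from 0.786 to 1. With the group means removed, r ran from 0.832 to 0.990, so the likeness was as high within the groups. These are descriptions of 7 libraries that share their scaling, and they carry no test. Relative to each gene's own mean over the 7 libraries, WT replicate 1 was lower for 9 of 9 genes, by 0.49 on the log2 scale on average. Fpr2KO replicates 4 and 3 were also lower for 9 of 9, with means of -0.42 and -0.28. WT replicates 3 and 2 and Fpr2KO replicate 2 were higher for 9 of 9, with means of 0.49, 0.41 and 0.31. Fpr2KO replicate 1 stood between them at -0.01, with 5 genes above and 4 below their means.

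The spread of these genes within a group was wider than that of most genes. Their median SD of log2 CPM was 0.36 in Fpr2KO and 0.59 in WT, against 0.13 and 0.16 for the 10719 tested genes that averaged 8 CPM or more, as all 9 did. Among those genes, 8.41% had an SD at least as large as the member median in Fpr2KO, and 4.21% did in WT.

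The proportions between members varied less. The ratios of 5 pairs per kilobase were compared between the groups, and their highest-to-lowest ratio over the 7 libraries was 1.29 for Tubb1 to Itga2b, 1.30 for Pf4 to Ppbp, 1.33 for Itga2b to Itgb3, 1.5 for Gp9 to Gp1ba and 1.57 for Treml1 to Gp6. The summed level of the 9 genes differed 1.96-fold. No ratio passed an exact two-sided permutation test between Fpr2KO and WT (raw p from 0.257 to 0.8286, at least 0.714 after Benjamini-Hochberg adjustment over the 5 ratios). Treml1 to Gp6, the ratio with the smallest p, was 5.24 ± 0.550 in Fpr2KO (SD, n = 4) and 6.03 ± 0.943 in WT (SD, n = 3).

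Per kilobase of exon, the order of the members ran over a wide range of levels. Ppbp was highest, at 296 CPM per kilobase in Fpr2KO and 333 in WT, and Pf4 came next at 121 and 146. A gap followed to Tubb1 (27.2 and 33.2) and Gp9 (26.7 and 32.3), which could not be ordered, since Tubb1 was the higher of the pair in 3 of 7 libraries. Itgb3 (19.5 and 24.2), Treml1 (15.02 and 19.96) and Itga2b (13.5 and 17.4) overlapped in range but kept this order within all 7 libraries. The lengths merge the exons of all annotated transcripts, 10 for Itga2b (5454 bases) and 5 for Treml1 (1402 bases). The order between genes depends on these lengths, which are the same for every library. Gp1ba (5.75 and 6.61) and Gp6 (2.93 and 3.24) were lowest, in that order in all 7.

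Genes outside the set that followed the pattern included other platelet genes. The 8 with the highest r with the mean pattern of the members, out of 12865 ranked, were Mutyh, Gmpr, Alox12, Slc6a4, F2rl2, Ubash3b, Gng11 and Clec1b, with r from 0.982 to 0.963 over 7 libraries. Alox12 encodes the platelet 12-lipoxygenase and Slc6a4 the serotonin transporter, through which platelets load serotonin. F2rl2 encodes the thrombin receptor PAR3 of mouse platelets, Gng11 a G protein gamma subunit and Clec1b the podoplanin receptor CLEC-2. Ubash3b encodes a phosphatase that restrains Syk signalling, Mutyh a DNA repair glycosylase and Gmpr GMP reductase. Alox12 had 52.9, 63.6, 42.1 and 42.3 CPM in Fpr2KO replicates 1 to 4, against 40.95, 77.3 and 79.2 CPM in WT replicates 1 to 3. Slc6a4 had 16.8, 23.8, 16.7 and 13.2 CPM in Fpr2KO, against 12.7, 24.2 and 28.1 CPM in WT. Both repeat the low WT replicate 1 and the high Fpr2KO replicate 2 of the members, and the groups overlap. Mutyh varied over a narrower range, from 5.21 to 6.71 CPM in Fpr2KO and from 5.03 to 6.71 CPM in WT. None of these 8 genes passed edgeR's test, and their log2 fold changes ran from -0.39 to -0.07. Exons of Gmpr overlap those of Atxn1 on the other strand over 16.1% of their length, so its reads are uncertain.

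**Figure D3:**
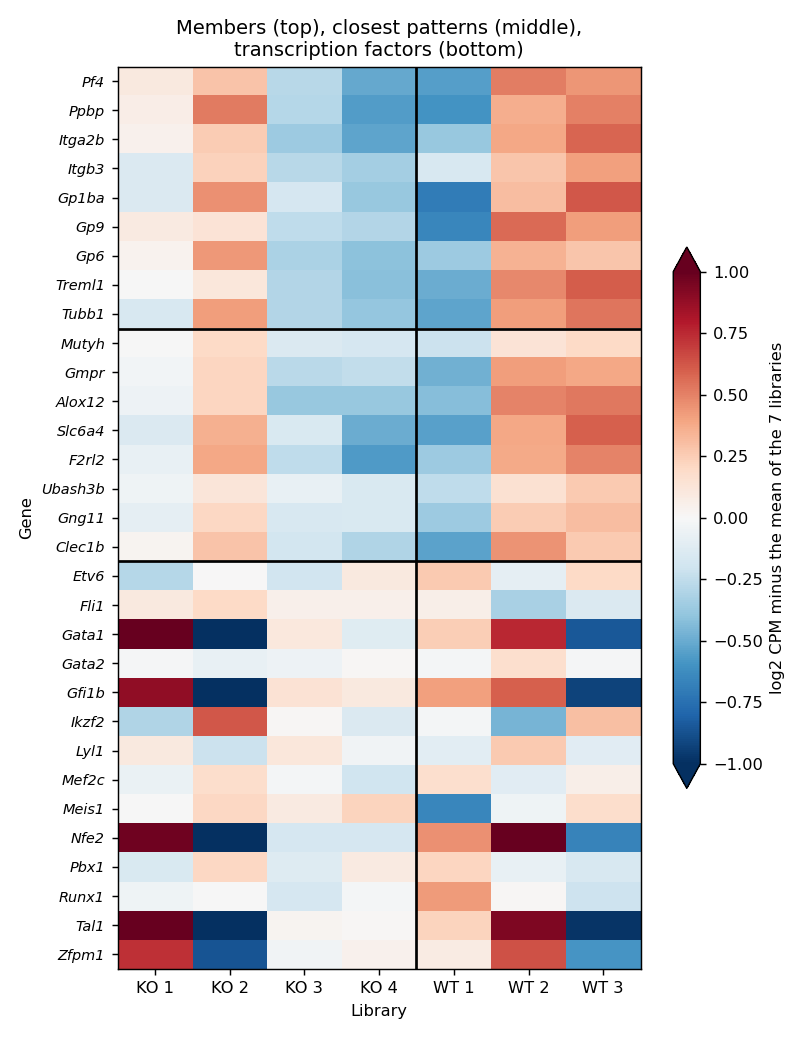
Log2 CPM minus the mean of the 7 libraries for the 9 members (top), the 8 genes closest to their mean pattern (middle) and the 14 tested megakaryocyte transcription factor genes (bottom), with Fpr2KO (KO) left of WT and colours capped at -1 and 1. The upper blocks are low in WT replicate 1 and high in WT replicates 2 and 3, while Gata1, Gfi1b, Nfe2, Tal1 and Zfpm1 show another, high in Fpr2KO replicate 1 and WT replicate 2.

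Further platelet and megakaryocyte genes were read in lists by role. Of 18 other platelet surface receptor genes, all tested, 0 passed edgeR's test in either direction, 16 had a lower fitted level in Fpr2KO and the median log2 fold change was -0.22. That median was -0.40 without WT replicate 1, -0.12 without WT replicate 3 and -0.38 without both Fpr2KO replicates 1 and 2. Those with the smallest p were the ADP receptor gene P2ry1 (-0.34, SE 0.15), the adhesion molecule gene Esam (-0.22), the thrombin receptor PAR4 gene F2rl3 (-0.23) and the thromboxane receptor gene Tbxa2r (0.20). For 3 of the 18 genes, P2ry1, Esam and F2rl3, the groups were apart with Fpr2KO lower, against 3.18% of all genes, with P2ry1 at 9.99 ± 1.51 CPM in Fpr2KO (SD, n = 4) and 12.7 ± 1.16 CPM in WT (SD, n = 3). These 3 genes did not follow the member pattern closely, with an r of 0.564 for P2ry1, 0.375 for Esam and 0.0425 for F2rl3. Exons of P2ry1 overlap an antisense gene over 23.1% of their length. In this list 7 of 18 genes, or 38.9%, had an r above 0.9 with the member pattern, against 0.448% of all tested genes that are not members. Among them were F2rl2, Clec1b, Ly6g6f, Gp5, P2rx1 and Trpc6, and those not named above were picked with their values in view. Gp5 encodes the remaining named chain of the GPIb-IX-V complex beside Gp1bb, and had 21.5, 25.2, 18.3 and 14.1 CPM in Fpr2KO, against 13.8, 23.9 and 33.2 CPM in WT. Gp1bb itself had at most 1.72 CPM in any library, picked with its values in view, but its exons overlap those of Sept5 and Gm49601 over their whole length, so its level is uncertain.

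Of 20 genes for granule contents and granule formation, 0 passed, 13 were lower and the median was -0.16. The smallest p values belonged to the protease inhibitor gene Serpine2 (-0.51, SE 0.19), the chemokine gene Cxcl5 (-1.67, SE 0.67), the granule trafficking gene Vipas39 (-0.17) and the coagulation factor V gene F5 (-0.34). The r of the 20 genes with the member pattern had a median of 0.180 and ran from -0.834 to 0.943. Mmrn1, which encodes a protein that carries factor V in granules, and Vwf were the 2 above 0.9 (0.943 and 0.925). Timp3, Pdgfa and Sparc had the lowest r (-0.834, -0.740 and -0.684). All of these genes were picked with their values in view. The groups were apart with Fpr2KO lower for 2 of the 20 genes, against 3.18% of all genes. They were Vipas39, at 42.3 ± 1.77 CPM in Fpr2KO (SD, n = 4) and 47.7 ± 0.755 CPM in WT (SD, n = 3), and the proteoglycan gene Srgn, picked with its values in view. Leaving out WT replicate 3 brought the median of this list to -0.055, and leaving out Fpr2KO replicate 4 to -0.10. It was -0.175 without both Fpr2KO replicates 1 and 2.

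Of 24 genes for the platelet cytoskeleton, signalling and eicosanoid enzymes, 23 were tested, 0 passed, 18 were lower and the median was -0.09, or -0.024 without WT replicate 3 and -0.054 without Fpr2KO replicate 1. It was -0.084 without both Fpr2KO replicates 1 and 2. Myl9, a myosin light chain gene, was at -0.30 (SE 0.12), Mob3b at 0.43 (SE 0.19), the calmodulin-binding protein gene Nrgn at -0.46 and the pleckstrin gene Plek at -0.18. For 1 of the 23 genes, Mob3b, the groups were apart, against 5.91% of all genes in either direction, with 8.56 ± 1.30 CPM in Fpr2KO (SD, n = 4) and 6.35 ± 1.26 CPM in WT (SD, n = 3). Nrgn joined Alox12 and Gng11 with an r above 0.9 with the members (0.920), while the talin gene Tln1, used by many cells and picked with its values in view, had an r of -0.268.

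The transcription factor genes of megakaryocytes did not share the pattern. Of 15 listed genes 14 were tested, 0 passed, 8 were lower and the median was -0.02, and leaving out WT replicate 1 gave 0.018, WT replicate 2 0.072, WT replicate 3 -0.14, Fpr2KO replicate 1 -0.11 and Fpr2KO replicate 3 or 4 -0.013. Leaving out both Fpr2KO replicates 1 and 2 gave -0.0895. The genes with the smallest p were the ETS factor genes Fli1 (0.23, SE 0.10) and Etv6 (-0.22), Meis1 (0.27) and Runx1 (-0.16). At an unadjusted p under 0.05 the counts were 1 of 18 receptor genes, 3 of 20 granule genes, 2 of 23 cytoskeleton and signalling genes and 1 of 14 transcription factor genes, against 4.98% of all genes, and DESeq2 called 0 in each list. The r of the transcription factor genes with the member pattern ran from -0.496 to 0.441, with a median of -0.235, and 0 were above 0.9. Of these factors Gata1, Gfi1b, Nfe2, Tal1 and Zfpm1, which also drive red cell formation and were picked with their values in view, instead had r from 0.977 to 0.985 with the mean pattern of 18 erythroid genes. Gata1 had 80.8, 14.8, 39.0 and 33.4 CPM in Fpr2KO replicates 1 to 4, against 43.0, 61.1 and 20.1 CPM in WT replicates 1 to 3. Nfe2 had 109.7, 20.1, 49.8 and 49.7 CPM in Fpr2KO, against 76.7, 115 and 35.1 CPM in WT. Fpr2KO replicate 2 and WT replicate 3, high in platelet genes, were the lowest libraries for both factors. WT replicate 2, also high in platelet genes, was the highest library for Nfe2 and below only Fpr2KO replicate 1 for Gata1. With the member pattern Gata1 had an r of -0.302 and Nfe2 of -0.221.

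Markers of other cells in the spleen were summed beside the members. The 18 erythroid genes, none at 0, summed to between 10452 and 55271 CPM in Fpr2KO and between 15466 and 95207 in WT, and their mean pattern had an r of -0.338 with that of the members. Endothelial genes, of which Vwf and Selp are also platelet genes, summed to between 705 and 788 CPM in Fpr2KO and between 739 and 864 in WT. WT replicate 1, low in platelet genes, was the highest library for that list, and Fpr2KO replicate 3, also low in platelet genes, was the lowest. Mast cell and basophil genes, listed because their precursors carry Itga2b, summed to between 78.4 and 100.4 CPM in Fpr2KO and between 122 and 182 in WT. Neutrophil genes summed to between 1524 and 3106 CPM in Fpr2KO and between 3758 and 5089 in WT. The sums of both lists were apart between the groups, while those of the members overlapped. Gene by gene, the groups were apart for 5 of 15 neutrophil and 4 of 11 mast cell and basophil genes. In each of these Fpr2KO was the lower, against 3.18% of all genes. By edgeR's test 0 genes of either list passed, and DESeq2 called 5 and 1, against 0.343% of the genes tested by both tools. The r of the 15 neutrophil genes with the member pattern had a median of 0.483 and ran from -0.403 to 0.837, the highest being the granule protease gene Ctsg. That of the 11 mast cell and basophil genes had a median of 0.360 and ran from -0.442 to 0.789, the highest being the basophil protease gene Mcpt8. The part of any of these cells, or of acinar tissue, in the platelet gene levels was not tested. In Fpr2KO the acinar-rich replicates 1 and 2 were also the higher for the members. In WT the acinar sums were between 24.4 and 49.1 CPM and the member sums between 531 and 1036 CPM.

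**Figure D4:**
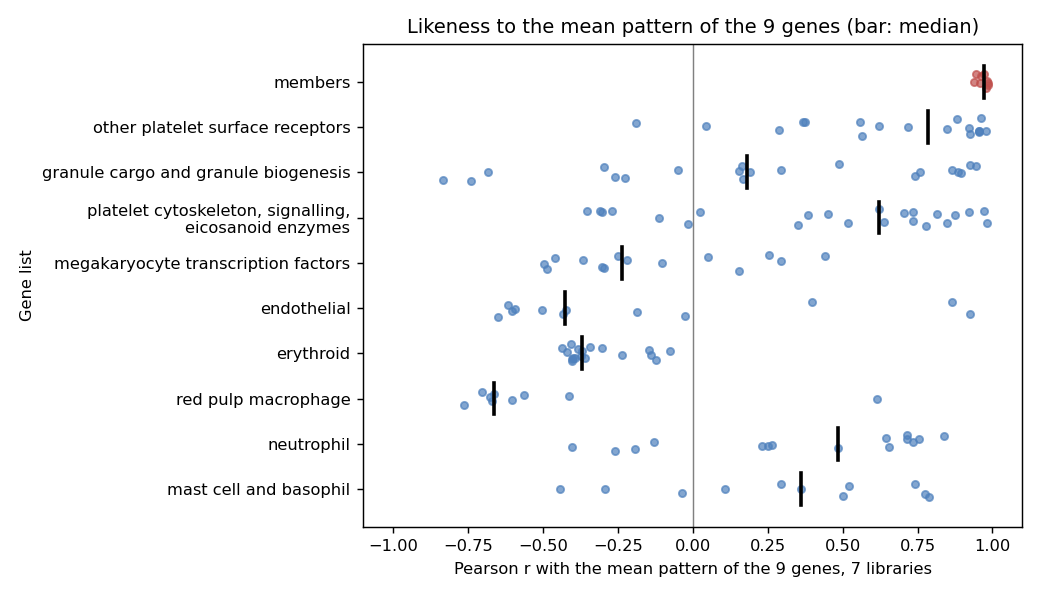
Pearson r of each tested gene with the mean pattern of the 9 members over the 7 libraries, by gene list, with the list median as a bar. The members lie between 0.937 and 0.986, being part of that mean, receptor genes reach 0.978, and the transcription factor and erythroid genes reach no higher than 0.441 and -0.0757.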

How the data were processed

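The deposited values are whole-number counts of reads for each Ensembl gene, not normalized by the authors, in 1 table for the series. Per the submitters' processing notes, FastQC 0.10.1 and HTSeq 0.10.0 were used on mm10 (GRCm38). The aligner, annotation release, strand setting and treatment of overlapping genes are not given in the sources used here. Per the labels' protocols, extraction used a Qiagen RNeasy Plus kit, and libraries were made with NEBNext Ultra II RNA reagents. Symbols, positions and merged exon lengths came from GENCODE M21, which matched 52081 IDs (99.8% of counts) and not 3333. The counting annotation may differ from it.

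Counts were tested with edgeR 4.0.16 in R 4.3.3 (quasi-likelihood F test, robust estimation, TMM, filterByExpr at its defaults, group as the only term). Log2 fold changes are Fpr2KO minus WT, and intervals are 95%. Log2 CPM used a prior count of 2. Likeness is Pearson's r over 7 libraries. Named genes are the members, the 4 smallest p of each list and the 8 highest r among genes of at least 1 CPM (no immunoglobulin, T cell receptor, Gm, Rik or accession names). Every other gene named was picked with its values in view. Alternatives tried were upper-quartile and RLE scaling, library sizes that leave out mitochondrial, haemoglobin and immunoglobulin genes, DESeq2 1.42.0, limma-voom 3.58.1 with quality weights, robust estimation off, no filter, 1 CPM in 3 samples, each sample left out, Fpr2KO replicates 1 and 2 left out, and a replicate block. The edgeR script was first tested on simulated counts. Members and lists were chosen with earlier results of these data known. The labels do not say that replicates are separate animals, so p-values cover only the spread among these libraries, which may be technical. The floor covers counting error only.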

Additional observations from a re-analysis of the deposited data

Results flagged for a closer look

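Of 33 named genes whose 4 Fpr2KO libraries were checked for a sample far from the others, 1 stood out, and chance alone would give about 1 in 20 such groups. Gng11 had 41.3 CPM in Fpr2KO replicate 2, against 32.1 to 33.6 CPM in the other Fpr2KO libraries. The gap to its nearest neighbour took 0.830 of the range, just above the limit for 4 samples. In WT it had 27.8, 42.7 and 44.4 CPM. None of the 9 members met this criterion.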

How the results depend on the processing

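No alternative gave a member that passed, nor a gene of the other 4 platelet and megakaryocyte lists. Across all genes, edgeR called 6, and the count was 58 with DESeq2 (55 of them among the genes edgeR tested), 21 without a low count filter and 5 to 15 with 1 library left out (10 without WT replicate 1, 15 without WT replicate 3). The median of the members kept its sign throughout, from -0.55 to -0.13, and was -0.43 with limma-voom. Scaling moved the median of all genes by at most 0.02. With 1 library left out, the median of the receptor genes ran from -0.40 to -0.12, that of the cytoskeleton and signalling genes from -0.13 to -0.024, that of the granule genes from -0.18 to -0.055, and that of the transcription factors from -0.14 to 0.072 (0.018 without WT replicate 1). Among named genes, fitted levels changed sign without WT replicate 3 for Ppbp (range with 1 library left out -0.44 to 0.032), Gp1ba (-0.49 to 0.087), Mutyh (-0.19 to 0.0081) and Ubash3b (-0.24 to 0.0057), without WT replicate 2 for Clec1b (-0.38 to 0.057) and without WT replicate 1 for Runx1 (-0.29 to 0.037). The cause was not tested. The lowest r between members was between 0.760 and 0.850 with 1 library left out and 0.855 without both Fpr2KO replicates 1 and 2. Same-numbered libraries of the groups did not deviate together (r of 0.0778, -0.434 and -0.0733 for numbers 1 to 3), and none was the best match of its Fpr2KO library, so the numbers were not taken as pairs. With a replicate block, 2 genes were called over all genes, the member median was -0.13 and Ppbp was at 0.015. The members had 146 to 8590 reads per library.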

Other observations

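Cxcl5, the chemokine gene that lies near Ppbp and Pf4 on chromosome 5 (90759360 to 90761624, plus strand), did not follow them. It had 2.41, 3.38, 2.78 and 1.72 CPM in Fpr2KO replicates 1 to 4, against 17.3, 2.29 and 5.05 CPM in WT replicates 1 to 3. Its highest library, WT replicate 1, was the lowest for Ppbp and Pf4, and its r with the member pattern was -0.227. Its log2 fold change was -1.67 (SE 0.67, edgeR adjusted p = 0.988) and lay between -2.11 and -0.51 with 1 library left out.

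Most red pulp macrophage genes had a negative r with the mean pattern of the members. The r of 9 such genes with the member pattern had a median of -0.665 and ran from -0.764 for the iron transporter gene Slc11a1 to 0.614 for Cd5l. Their summed level was between 3519 and 4515 CPM in Fpr2KO and between 3412 and 4363 CPM in WT. It did not run in the reverse order of the members. It was 3869 CPM in Fpr2KO replicate 4, low for the members, and 3905 CPM in WT replicate 2, high for them. The 12 endothelial genes also had a negative median r with the members (-0.428), against -0.0419 for all tested genes that are not members. Ikzf2, listed among the transcription factors, had an r of -0.960 with the erythroid pattern, with 27.8 CPM in Fpr2KO replicate 2 and 13.1 CPM in WT replicate 2 as its extremes. Slc11a1, Cd5l and Ikzf2 were picked with their values in view. These are values over 7 libraries, given without a test.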
